A study of Homo sapiens with 8 samples.

Results

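Thymidylate synthase, encoded by TYMS, its overlapping neighbours ENOSF1 and TYMSOS, and 5 further genes of thymidylate supply, TK1, DTYMK, DUT, SHMT1 and RRM2B, were examined in the side population (SP) and the non-side population (NSP) of J82, a cell line long established from a human bladder carcinoma. These 8 genes were taken by gene identifier from a table of 57820 genes, and 7 of the 8 had enough counts to be among the 9309 genes tested between SP and NSP cells. They were chosen by their role and by the log2 fold changes of SP against NSP cells seen earlier in these libraries, so their values are given as a description and no p-value is printed for them. J82 cells were grown in culture without any drug named in the labels, and FACS separated the SP cells, which pump out the DNA dye Hoechst, from the NSP cells, which retain it. The mRNA of 4 SP and 4 NSP samples was sequenced as single-end reads, with replicate numbers 1 to 4 in each group. No source used here states that the replicates were separate cultures or sorts, so the spread between them may be technical.

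Thymidylate (dTMP) is the one DNA precursor that cells must make apart from the other deoxynucleotides. TYMS methylates dUMP to dTMP with a folate cofactor that SHMT1 helps to supply, DUT makes the dUMP from dUTP, TK1 salvages thymidine, and DTYMK phosphorylates dTMP on its way to dTTP. TYMS is the target of fluoropyrimidines and of antifolates, and its expression, like that of TK1, is known to rise as cells enter S phase. ENOSF1, which encodes a mitochondrial sugar acid dehydratase, runs toward TYMS from the other side and was first described as an RNA antisense to the TYMS transcript. TYMSOS is a long noncoding RNA (lncRNA) transcribed away from the start of TYMS on the opposite strand.

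The promoters of the 3 genes at the TYMS locus, which were lower in every SP library than in any NSP library, are shown with that of DTYMK, whose groups overlapped, so that they can be read side by side. Each sequence is the 250 bases before a RefSeq gene start in GRCh38.p14, written 5′ to 3′ on the gene's strand. TYMS is from chr18:657403-657652 on the plus strand, ENOSF1 from chr18:712631-712880 on the minus strand, TYMSOS from chr18:658292-658541 on the minus strand and DTYMK from chr2:241686816-241687065 on the minus strand. Capitals mark an E2F word, a CCAAT box or a cell cycle homology region (CHR) word on either strand.
TYMS: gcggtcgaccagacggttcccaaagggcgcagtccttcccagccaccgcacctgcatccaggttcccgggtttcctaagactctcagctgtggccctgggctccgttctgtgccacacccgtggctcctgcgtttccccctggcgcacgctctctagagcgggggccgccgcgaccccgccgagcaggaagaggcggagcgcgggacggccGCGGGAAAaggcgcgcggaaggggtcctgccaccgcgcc
ENOSF1: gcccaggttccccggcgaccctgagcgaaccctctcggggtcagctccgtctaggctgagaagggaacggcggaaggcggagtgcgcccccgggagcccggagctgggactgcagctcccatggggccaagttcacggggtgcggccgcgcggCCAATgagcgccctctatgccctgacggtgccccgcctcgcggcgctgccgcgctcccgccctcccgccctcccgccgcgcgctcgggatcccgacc
TYMSOS: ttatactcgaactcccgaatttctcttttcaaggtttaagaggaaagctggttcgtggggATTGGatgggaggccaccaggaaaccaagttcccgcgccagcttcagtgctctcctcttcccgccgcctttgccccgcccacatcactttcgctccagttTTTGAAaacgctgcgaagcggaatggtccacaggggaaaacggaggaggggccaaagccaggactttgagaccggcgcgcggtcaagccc
DTYMK: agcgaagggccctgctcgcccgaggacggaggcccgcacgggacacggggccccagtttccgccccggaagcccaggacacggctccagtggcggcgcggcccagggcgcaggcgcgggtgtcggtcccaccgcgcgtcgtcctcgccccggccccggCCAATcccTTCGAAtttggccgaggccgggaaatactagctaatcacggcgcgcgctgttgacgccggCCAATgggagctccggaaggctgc

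The search used exact letters on both strands. The E2F words were TTTCCCGC, TTTCGCGC, TTTGCCGC and TTTGGCGC. The CHR was read as TTTGAA, equally in the spelling TTCGAA or in the spelling TTTAAA, and a CCAAT box was any CCAAT. Of 35116 RefSeq promoters of the same length, 2.79% held an E2F word, 32% a CCAAT box and 22.8% a CHR word. The TYMS promoter held 1 E2F word, which begins 39 bases before the start, and no CCAAT box or CHR word. The ENOSF1 promoter held 1 CCAAT box and no E2F word. The TYMSOS promoter held 1 CCAAT box and 1 CHR word, and the DTYMK promoter held 2 CCAAT boxes and 1 CHR word. SHMT1 had 2 CCAAT boxes. TK1 and DUT have 2 and 4 annotated starts, and the most downstream DUT window was the only other member window with E2F words, of which it held 2. The forkhead core GTAAACA, looked for because the study is about the forkhead factor FOXC1, was present in 2.98% of promoters and in no window of TYMS, ENOSF1, TYMSOS, TK1, DTYMK, DUT or SHMT1. These matches describe letters only. No window of RRM2B was examined.

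An SP library held 1431823 to 1697218 deposited counts and an NSP library 1489033 to 2073526, which limits the precision of every gene with few counts. The paper gives a far larger number of raw reads per sample. What became of the other reads is not stated in the sources used here. Levels are given as CPM, a gene's count divided by its library's size after TMM normalization, on one scale for all libraries. A gene was called where the Benjamini-Hochberg adjusted p of edgeR's quasi-likelihood test was under 0.05 and the fold change over 1.3. ABCB1, the drug efflux pump by which a side population can be recognised, was 4.05 ± 3.23 CPM in NSP and 30.3 ± 4.76 CPM in SP libraries (SD, n = 4 each), and was called higher in SP cells (edgeR adjusted p = 7.44e-04). ABCG2, the other side population transporter looked at, was left out by the edgeR filter. Of the epithelial and urothelial markers, KRT8 lay between 2792 and 5093 CPM, whereas KRT20, UPK3A and TP63 had 0 counts in all 8 libraries and EPCAM, KRT5 and UPK1A at most 1 count in a library. KRT7 was the 1 gene called among the 5 tested of this list, at 659 ± 129 CPM in NSP and 258 ± 87.0 CPM in SP libraries (log2 fold change -1.35, edgeR adjusted p = 0.00342). Of 5 mesenchymal markers FN1 was called lower (-1.25, adjusted p = 8.63e-04), and VIM at -0.76 (adjusted p = 0.0784) was called lower by DESeq2 (adjusted p = 0.0458) and with the replicate block (3.39e-06), which also called SPARC lower (0.00866). CD14, the 1 tested blood or endothelial marker, was at 0.96 (adjusted p = 0.135) and was called higher with the block (2.77e-06). The part of these markers in the results that follow was not tested. The CPM values of SP replicate 3 are the highest of the 4 SP libraries for all 13 tested G2 and mitosis genes and for 12 of 19 tested S phase genes, and results that rest on this library are also given without it.

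TYMS, ENOSF1 and TYMSOS were lower in SP than in NSP cells, by 32.3%, 43.0% and 44.1%, and in each of them every SP library lay below every NSP library. The remaining tested members, TK1, DTYMK, DUT and SHMT1, had log2 fold changes between -0.28 and 0.00, and their groups overlapped. Among all tested genes 3.66% were called in either direction (3.33% by DESeq2), 2.03% lower and 1.63% higher in SP cells, and 3 of the 7 tested members were called lower and 0 higher. The median log2 fold change of the 7 was -0.28, beside 0.01 over all tested genes. Since the members were proposed on this contrast, nothing is read from these counts. In bulk samples such as these, fewer cells of a type and less RNA per cell cannot be told apart.

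**Figure D1:**
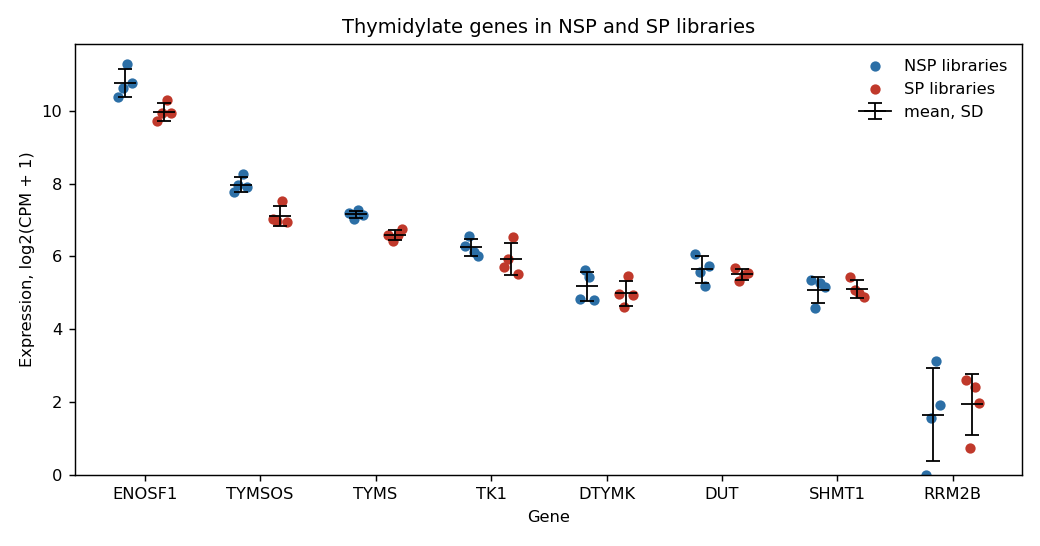
Expression of the 8 genes in each library on the log2(CPM + 1) scale, with NSP libraries in blue and SP libraries in red, and black bars for the mean and SD of each group (n = 4). The 4 SP libraries lie below the 4 NSP libraries for ENOSF1, TYMSOS and TYMS, and the groups overlap for the other genes.

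TYMS lies on GRCh37 chromosome 18 at 657653 to 673578 on the plus strand (ENSG00000176890). Its level in NSP replicates 1 to 4 was 144, 129, 154 and 138 CPM, and in SP replicates 1 to 4 it was 95.8, 84.4, 95.3 and 107 CPM. The highest SP library was SP replicate 4, and it stayed under the lowest NSP library, NSP replicate 2. The mean was 141 ± 10.2 CPM in NSP and 95.8 ± 9.40 CPM in SP cells (SD, n = 4 each), a log2 fold change of -0.56 (SE 0.15). These values rest on 200 to 271 counts per NSP library and 126 to 176 counts per SP library.

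ENOSF1 runs on the minus strand of chromosome 18 from 670318 to 712662 (ENSG00000132199) and was the most abundant of the members. It was at 1324, 1573, 2468 and 1747 CPM in NSP replicates 1 to 4 and at 837, 985, 1258 and 973 CPM in SP replicates 1 to 4. NSP replicate 3 stood above the other NSP libraries, SP replicate 3 above the other SP libraries, and the groups did not overlap. The means were 1778 ± 491 and 1013 ± 176 CPM (SD, n = 4 each), with a log2 fold change of -0.81 (SE 0.19).

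TYMSOS, the lncRNA, occupies 630886 to 658350 on the minus strand (ENSG00000176912). Its NSP values were 215, 246, 304 and 237 CPM and its SP values 130, 125, 182 and 121 CPM, in the order of the replicate numbers. Here too replicate 3 was the highest library of each group, and SP replicate 3 remained below all NSP libraries. The means were 251 ± 37.9 and 139.8 ± 28.7 CPM (SD, n = 4 each) and the log2 fold change was -0.84 (SE 0.17). Groups that do not overlap were found in 9.75% of all tested genes, and with SP below NSP in 4.97%.

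How often the 3 genes were called differed between settings. They were chosen on these same libraries, so the calls describe dependence on the settings only. TYMSOS was called in each of the 8 analyses that left out 1 library, with log2 fold changes from -1.0 to -0.73, and under each of 7 other methods or filters. ENOSF1 was called in all 7 other analyses, but only in 3 of the 8 that left out a library. It was no longer called without NSP replicate 2 (-0.87), NSP replicate 3 (-0.61), SP replicate 1 (-0.73), SP replicate 2 (-0.80) or SP replicate 4 (-0.80). TYMS was not called once any of the 8 libraries was left out, although its log2 fold change stayed between -0.63 and -0.51, and 5 of the 7 other analyses called it. The exceptions were upper-quartile normalization (-0.54) and no filter on low counts (-0.58).

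**Figure D2:**
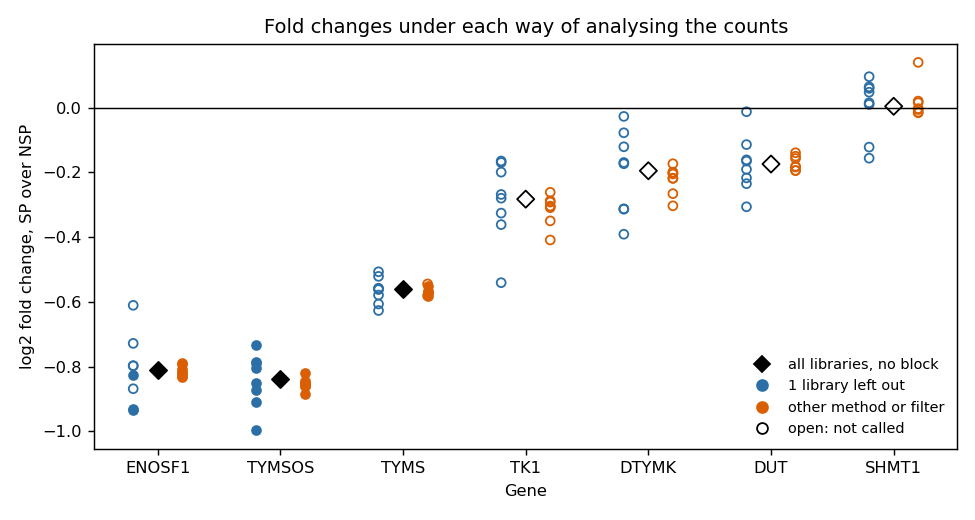
Log2 fold change of SP over NSP for the 7 tested genes with all libraries (black diamonds), with 1 library left out (blue) and under another method or filter (orange), where open symbols are values that were not called. TYMSOS is filled throughout between -1.0 and -0.73, TYMS is open in all 8 analyses that leave out a library, and TK1, DTYMK, DUT and SHMT1 are open throughout.

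SP and NSP libraries carry the same replicate numbers, but the labels do not say that same-numbered libraries are pairs. Differences were also taken within each number, as SP minus NSP on the log2(CPM + 1) scale. TYMS gave -0.58, -0.61, -0.68 and -0.36 for the numbers 1 to 4. ENOSF1 gave -0.66, -0.68, -0.97 and -0.84, and TYMSOS gave -0.72, -0.98, -0.73 and -0.96. All 4 numbers thus went the same way in each of the 3 genes, with the smallest difference of TYMS in number 4 and the smallest of ENOSF1 in number 1. With the replicate number as a block the log2 fold changes were -0.57 for TYMS, -0.79 for ENOSF1 and -0.85 for TYMSOS.

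**Figure D3:**
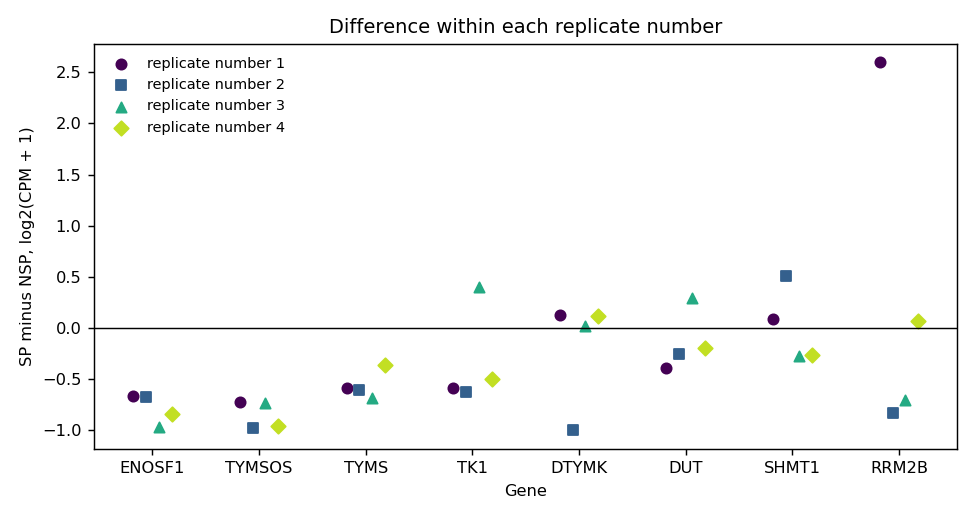
Difference of SP minus NSP on the log2(CPM + 1) scale within each replicate number, 1 symbol per number. All 4 symbols are below 0 for ENOSF1, TYMSOS and TYMS, whereas TK1 is above 0 in number 3 (0.40) and DTYMK is near 0 in 3 numbers and at -1.0 in number 2.

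The 3 genes share exon sequence. In the annotation used, 967 bases of TYMS exons lie across ENOSF1 exons on the other strand, within chr18:670692-673578, which is 39.9% of the TYMS exon length and 8.49% of that of ENOSF1. Of these 967 bases 383 are coding sequence of TYMS and none are coding sequence of ENOSF1. At its other end TYMS shares 193 exon bases with TYMSOS, within chr18:657842-658350, 106 of them coding. The strand setting of the read counting is not given in the sources used here, so reads from the shared bases cannot be told apart by gene. Over all 8 libraries TYMS had 1555 counts, TYMSOS 2593 and ENOSF1 18347, and per kb of exon ENOSF1 had 2.51 times and TYMSOS 1.31 times the counts of TYMS. Across the table, in 88.2% of 595 pairs of a lncRNA lying mostly across exons of a coding gene on the other strand, the lncRNA had more counts per kb than the coding gene. If the strand counted were the wrong one, a gene's count would hold reads of the opposite strand, also outside the shared bases. The part that such counting had in the levels or differences at this locus was not tested.

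**Figure D4:**
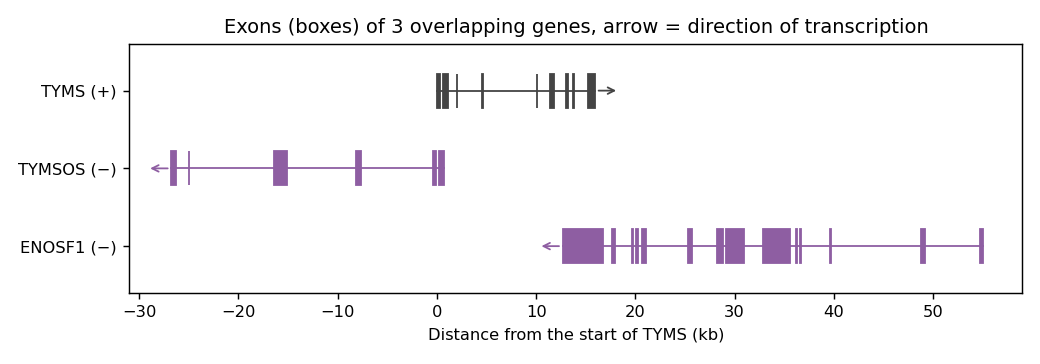
Map of the 3 overlapping genes, with boxes for merged exons and arrows for the direction of transcription, drawn by distance in kb from the start of TYMS. The last exon of ENOSF1 (leftmost box of its row) reaches over the end of TYMS, and the first exon of TYMSOS (rightmost box of its row) lies next to and partly across exons at its start.

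Ratios between the 3 genes within a library do not depend on the library size. The ENOSF1 count was 9.18 to 16.1 times the TYMS count in NSP libraries and 8.74 to 13.2 times in SP libraries. On the log2 scale the ratio was 3.62 ± 0.33 in NSP and 3.39 ± 0.29 in SP cells (SD, n = 4 each), a difference of -0.22 that ranged from -0.36 without NSP replicate 1 to -0.09 without NSP replicate 3. The TYMSOS to TYMS ratio was 1.49 to 1.98 in NSP and 1.13 to 1.91 in SP libraries, with a difference of -0.29 on the log2 scale. ENOSF1 to TYMSOS ranged from 6.15 to 8.11 over the 8 libraries, and the groups differed by 0.06. Within replicate numbers 1 to 4 the log2 ratio of ENOSF1 to TYMS differed by -0.07, -0.06, -0.28 and -0.48, and that of TYMSOS to TYMS by -0.14, -0.37, -0.05 and -0.60. Both ratios were thus lower in SP cells in all 4 numbers, while ENOSF1 to TYMSOS was higher in 3 of 4.

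The other genes of the surroundings were chosen after their values were seen. Of 9 tested genes within 500 kb of TYMS, the 6 that are not members all had negative log2 fold changes and none was called (edgeR). Over all tested genes 4490 of 9309 were negative. The kinase gene YES1 was -0.50 (SE 0.21, adjusted p = 0.235), with groups that did not overlap, and THOC1, which takes part in mRNA export, was -0.56 (SE 0.24, adjusted p = 0.249). The lncRNA ENSG00000266171 was -0.55 (SE 0.17, adjusted p = 0.101) and was called lower with the replicate block (adjusted p = 0.00625). It lies within YES1 on the other strand, and its groups did not overlap either. THOC1 and USP14 also overlap each other on the chromosome. USP14, a deubiquitinase, was -0.13 (SE 0.19), CLUL1, which shares 282 exon bases with TYMSOS, was -0.38 (SE 0.30), and the lncRNA ENSG00000265490, which lies mostly across ENOSF1 exons, was -0.08 (SE 0.26).

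TK1, the cytosolic thymidine kinase of the salvage route, was at 77.1, 93.3, 68.9 and 63.6 CPM in NSP replicates 1 to 4 and at 51.2, 60.3, 91.5 and 44.9 CPM in SP replicates 1 to 4. The 3 SP libraries other than replicate 3 lie below all NSP libraries, and SP replicate 3 lies near the highest of them. The log2 fold change was -0.28 (SE 0.21) with all libraries and -0.54 without SP replicate 3, and TK1 was called in neither. With replicate 3 as the exception, 3 of the 4 numbers were lower in SP cells.

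DTYMK, the thymidylate kinase, was at 27.7, 47.9, 42.1 and 27.0 CPM in NSP and at 30.3, 23.5, 42.8 and 29.4 CPM in SP libraries. The groups covered nearly the same range, and 3 of the 4 numbers were slightly higher in SP cells. Its log2 fold change of -0.20 (SE 0.24) moved between -0.39 without SP replicate 3 and -0.03 without NSP replicate 2.

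DUT, the dUTPase, was at 66.5, 46.4, 35.7 and 52.5 CPM in NSP and at 50.4, 38.9, 43.9 and 45.6 CPM in SP libraries. The SP libraries fell inside the range of the NSP libraries, and the log2 fold change was -0.17 (SE 0.20). DUT shares 533 exon bases with the lncRNA DUT-AS1 on the other strand, which had 1916 counts against 622 for DUT. DUT-AS1 had a log2 fold change of -0.09 (SE 0.22, edgeR adjusted p = 0.898), and the part its reads have in the DUT counts was not tested.

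SHMT1, the cytosolic serine hydroxymethyltransferase, was at 39.9, 22.7, 37.6 and 34.6 CPM in NSP and at 42.5, 32.8, 30.9 and 28.7 CPM in SP libraries, with a mean of 33.7 CPM in both groups. SMCR8, which shares 197 exon bases with it on the other strand, had 77 counts against 434 for SHMT1 and was left out by the edgeR filter (DESeq2 log2 fold change 0.52, SE 0.50, adjusted p = 0.788). The log2 fold change of SHMT1 was 0.00 (SE 0.22), and the sign followed the setting, from -0.16 without NSP replicate 2 to 0.14 with limma voom. RRM2B, the p53-induced small subunit of ribonucleotide reductase, had 0, 4, 12 and 4 counts in NSP and 7, 1, 8 and 4 counts in SP libraries, 40 in all, and was left out by the edgeR filter. DESeq2, which included it, gave a log2 fold change of 0.07 (SE 0.86) and did not call it. The count of 0 in NSP replicate 1 allows a level of up to 3 counts, or 1.60 CPM, which covers counting error only. A difference in RRM2B was not detectable at this depth.

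Levels can be compared between genes per kb of exon only roughly. Exon lengths were merged over all annotated transcripts of a gene, from a later release of the annotation than the one counted. In NSP cells the order by CPM per kb was ENOSF1 (156 ± 43.1), TYMSOS (81.5 ± 12.3), TYMS (58.4 ± 4.22), TK1 (41.1 ± 7.04), DTYMK (15.1 ± 4.37), DUT (13.7 ± 3.50), SHMT1 (4.80 ± 1.09) and RRM2B (0.575 ± 0.603). DTYMK and DUT did not differ beyond their spread. In SP cells ENOSF1 still led with 89.0 ± 15.5 CPM per kb, followed by TYMSOS (45.4 ± 9.34), TYMS (39.6 ± 3.88) and TK1 (33.6 ± 11.2). TYMSOS differed from TYMS, and TYMS from TK1, by less than the larger of their 2 SDs. DTYMK (13.1 ± 3.38) and DUT (12.2 ± 1.3) were again alike within the SD, above SHMT1 (4.81 ± 0.869) and RRM2B (0.602 ± 0.357).

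Variation between libraries of the same group was used to look for genes with a pattern most like that of TYMS or ENOSF1, as Pearson's r of log2(CPM + 1) after centring on each group's mean, over the 8 libraries and among 5398 genes. The libraries share depth and normalization, so these r values are a description. For TYMS the highest were YTHDF1 (0.978), SSR1 (0.955), BUD31 (0.948), AOPEP (0.944) and COX6B1 (0.943), none of them called between SP and NSP cells. ENOSF1 ranked 1290th for TYMS with r = 0.27, TYMSOS had r = 0.14 and TK1 r = -0.46. For ENOSF1 the highest were YEATS2-AS1 (0.996), CEP192-DT (0.987), SAV1 (0.982), ENSG00000269292 (0.982) and LRRC51 (0.975), also not called. TYMSOS ranked 156th for ENOSF1 with r = 0.85, and DUT had r = -0.81. Within the groups, then, the TYMSOS count followed the ENOSF1 count more closely than either followed that of TYMS, on 8 libraries. Both genes have exons across TYMS exons on the other strand, and the part of strand counting in these r values was not tested.

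The wider pathway was followed through 63 genes of thymidylate synthesis and salvage, ribonucleotide reductase and deoxynucleoside kinases, folate uptake and one-carbon metabolism, and uracil and fluoropyrimidine handling. Of the 39 tested, 0 were called higher and 0 lower in SP cells by edgeR, DESeq2 or limma voom. At an unadjusted edgeR p under 0.05 there were 3 higher and 4 lower, beside 757 higher and 770 lower of all 9309 tested genes. The median log2 fold change was -0.08, with 17 positive and 22 negative values from -1.01 to 0.97. With the replicate block 2 were called higher and 2 lower, where 5.89% of all tested genes were called higher and 7% lower. Neither count is above the share of all tested genes, so nothing is read from these calls. All 4 belong to the folate list, of which 14 of 24 genes were tested. With the block 12.9% of all tested genes were called in either direction. The folate list is named here because it holds these calls, so nothing is read from their place in it. All 4 also have an exon across a gene on the other strand, as do 57.4% of all tested genes.

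The folate carriers SLC19A1 and SLC46A1 were among the 4, in opposite directions. SLC19A1, the reduced folate carrier, was 50.0 ± 12.7 CPM in NSP and 27.8 ± 7.72 CPM in SP libraries (SD, n = 4 each), a log2 fold change of -0.84 (SE 0.24, edgeR adjusted p = 0.0637), and with the block its adjusted p was 2.66e-04. SLC46A1, the proton-coupled folate transporter, was 692 ± 170 and 1050 ± 206 CPM in NSP and SP libraries, a log2 fold change of 0.60 (SE 0.19, adjusted p = 0.105), and with the block 2.13e-04. SLC19A1 was lower and SLC46A1 higher in SP cells in all 4 replicate numbers. Without the block, SLC19A1 was also called when NSP replicate 4 was left out (-0.99), and SLC46A1 when SP replicate 3 was left out (0.72). SARM1 on the other strand lies across 55.6% of the SLC46A1 exon length, and its part in the SLC46A1 counts was not tested.

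Of the folate enzymes, MTHFD2, the mitochondrial methylenetetrahydrofolate dehydrogenase, was 14.2 ± 5.18 CPM in NSP and 7.14 ± 2.6 CPM in SP libraries, with a log2 fold change of -1.01 (SE 0.35, edgeR adjusted p = 0.137, with the block 0.0208). ALDH1L1, which oxidises formyltetrahydrofolate, was 13.3 ± 5.33 and 25.6 ± 7.23 CPM, with a log2 fold change of 0.97 (SE 0.29, adjusted p = 0.0841, with the block 0.00156). Without NSP replicate 3 it was called at 1.27. FPGS and GGH, which add and remove the glutamate tail of folates, were -0.06 (SE 0.16) and -0.14 (SE 0.31).

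Of the salvage and ribonucleotide reductase genes, the mitochondrial thymidine kinase TK2 was -0.72 (SE 0.33, edgeR adjusted p = 0.28) and the mitochondrial deoxynucleotidase NT5M was 0.66 (SE 0.38, adjusted p = 0.425). The reductase subunits RRM1 and RRM2 were 0.19 (SE 0.23) and -0.18 (SE 0.33). Among genes that handle uracil and fluoropyrimidines, the uracil glycosylase UNG was 40.3 ± 3.69 CPM in NSP and 28.5 ± 4.59 CPM in SP libraries, with groups that did not overlap and a log2 fold change of -0.49 (SE 0.19, adjusted p = 0.194). TYMP, the thymidine phosphorylase, was 0.22 (SE 0.22) and UMPS, which makes UMP and activates fluorouracil, was -0.14 (SE 0.34). DPYD, which degrades uracil and fluorouracil, had 68 counts in all and was left out by the edgeR filter, with 6.85 ± 3.03 CPM in NSP and 2.97 ± 2.23 CPM in SP libraries (DESeq2 log2 fold change -1.20, SE 0.63, adjusted p = 0.424). Groups did not overlap in 3 of the 39 tested pathway genes, beside 9.75% of all tested genes. Besides UNG these were DCTD (0.51, SE 0.22, edgeR adjusted p = 0.255) and SLC25A32 of the folate list (0.56, SE 0.29, adjusted p = 0.37), both higher in SP cells. None of the tested genes of this paragraph was called with or without the block.

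**Figure D5:**
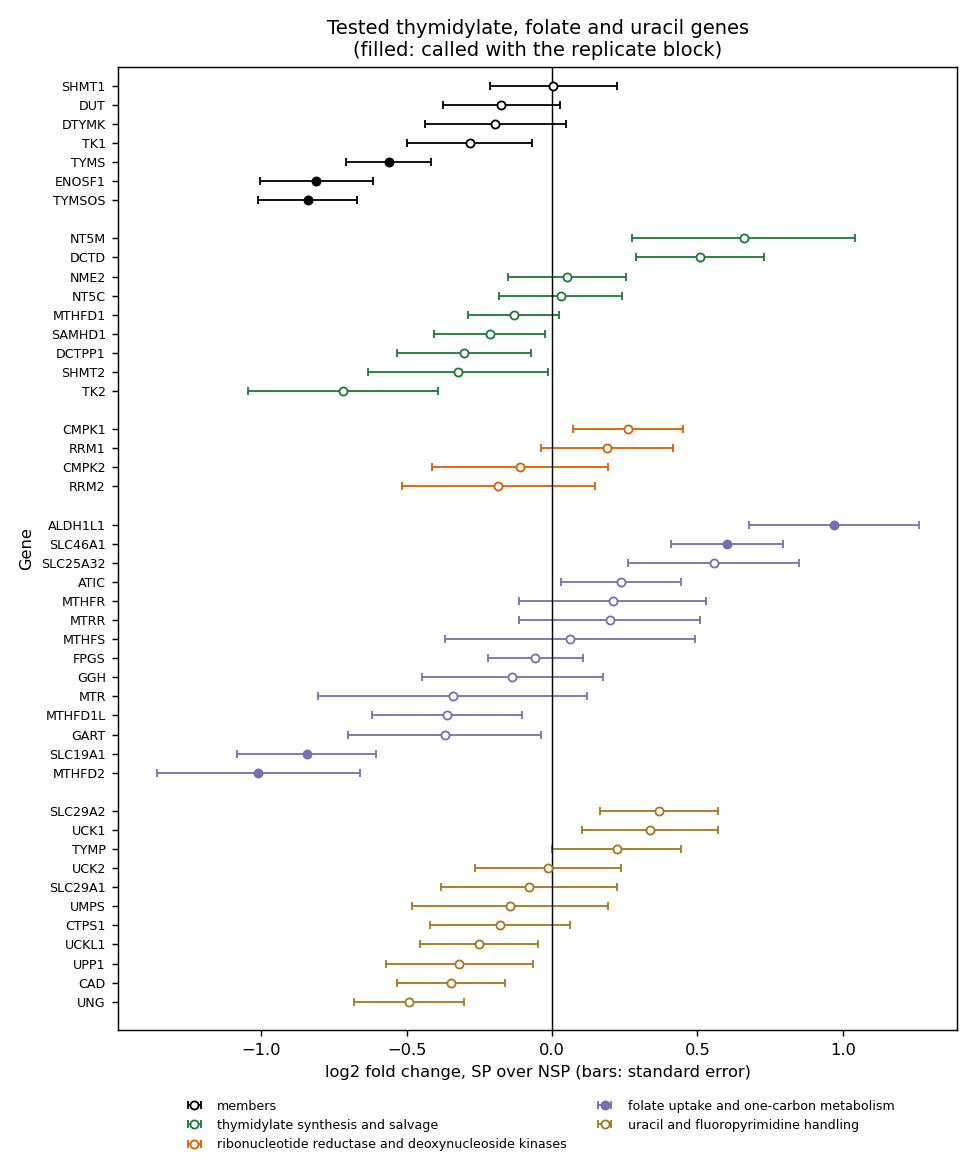
Log2 fold change of SP over NSP with its standard error for the 7 tested members and for tested genes of the 4 pathway lists, coloured by list and with 1 gene not shown, where filled symbols were called with the replicate block. TYMS, ENOSF1 and TYMSOS are filled on the left among the members, and MTHFD2, SLC19A1, SLC46A1 and ALDH1L1 are the 4 filled symbols among the pathway genes.

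Because TYMS and TK1 follow the cell cycle, S phase genes and G2 and mitosis genes were set beside them. Of 19 tested S phase genes 0 were called by edgeR or DESeq2, with a median log2 fold change of -0.16. Before adjustment 2 of the 19 fell and 0 rose at edgeR p under 0.05, beside 770 lower and 757 higher of all 9309. With the block MCM2, a subunit of the replicative helicase, was called lower (-0.45, edgeR adjusted p = 0.00943). It was 1 of the 19, where 7% of all tested genes were called lower. Groups did not overlap in 3 of the 19, MCM2, MCM7 and CCNE1, all lower in SP cells, beside 4.97% of all tested genes with SP below NSP. The extremes were MCM10 (-0.55, SE 0.39) and CCNE1 (-0.48, SE 0.24) on the lower side and CDC6 (0.44, SE 0.38) and MCM6 (0.38, SE 0.26) on the higher side. The summed level of the S phase list was 1474 to 1651 CPM in NSP and 1182 to 1482 CPM in SP libraries.

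Of 13 tested G2 and mitosis genes 1 was called lower and 0 higher, with a median of -0.37. It was TOP2A, the DNA topoisomerase of mitotic chromosomes, at -1.25 (SE 0.29, edgeR adjusted p = 0.0238). TOP2A was not called without NSP replicate 3 (-1.19), NSP replicate 4 (-1.13), SP replicate 2 (-1.09) or SP replicate 4 (-1.11). The mitotic kinase AURKB was -1.0 (SE 0.33, edgeR adjusted p = 0.117). It was called lower with the block (adjusted p = 4.99e-04) and without SP replicate 3 (-1.57, adjusted p = 0.00845). BIRC5 (0.24, SE 0.26) and CCNA2 (0.17, SE 0.20) were the highest. With the block 6 of the 13 were called lower, where 7% of all tested genes were. Without SP replicate 3 the fit without the block called 4 lower, where 1.7% of all tested genes were. SP replicate 3 was the highest SP library for all 13, so leaving it out lowers their SP means. Nothing is therefore read from that count. The log2 fold change of TYMS without SP replicate 3 was -0.56. The summed level of the list was 545 to 985 CPM in NSP and 394 to 936 CPM in SP libraries. The part that cell cycle stage has in the lower TYMS level was not tested.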

How the data were processed

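Reads of 50 bases from one end were aligned by the authors to hg19 (STAR) and assigned to GENCODE version 19 genes (featureCounts), and raw counts were deposited without normalization. The strand setting and the handling of multimapping reads are not given in the sources used here. Symbols and exons were joined by gene identifier from a later GENCODE release mapped to GRCh37, which matched 55538 of 57820 genes (96.1%). The genes without a match held 4.06% of the counts. PECAM1 and UHRF1 were not matched.

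The counts were fitted in edgeR 4.0.16 under R 4.3.3 (TMM; filterByExpr, min.count 10, min.total.count 15; glmQLFit; glmQLFTest) without a covariate, over all 9309 genes that passed. The SE is the log2 fold change divided by the square root of F. In simulated counts for 9309 genes of this comparison with 200 changed, edgeR recovered 100% of 4-fold and 87% of 2-fold changes, with 11 false among 198 calls. The changed genes were all drawn from genes above 20 CPM on average and no pairing was simulated, so genes at lower levels are not covered. Deviations of same-numbered SP and NSP libraries from their group means correlated at 0.38, 0.203, 0.322 and 0.321 in replicates 1, 2, 3 and 4. Libraries of different numbers were not compared in this way. The replicate block treats same-numbered libraries as pairs, which no source used here states. Replicates differed beyond sampling noise (chi-square over its degrees of freedom 5.70 to 13.2), and each was counted as 1 sample.

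The members and gene lists were chosen with earlier results of these data known. The genes named are the members and genes with an exon across theirs, listed pathway genes called with or without the block, the 3 highest and 3 lowest pathway log2 fold changes, 11 drug-related genes, the 2 highest and 2 lowest genes of each cell cycle list, and the 5 genes most like TYMS and ENOSF1. Pathway and S phase genes whose groups did not overlap were added after their values were seen. Of these, 1 pathway gene is counted in its list but not reported here by name. Marker genes of the cell line were named after their values were seen. The most alike genes were sought among tested genes of at least 20 CPM on average. The alternatives were DESeq2 1.42.0, limma 3.58.1 voom with quality weights, DESeq2 size factors, upper-quartile normalization, no filter, at least 10 counts in every library, the replicate block, and each library left out.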

Additional observations from a re-analysis of the deposited data

Results flagged for a closer look

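In 46 groups of 4 libraries, the gap between the highest or lowest library and its nearest neighbour was divided by the group's range. The ratio passed Dixon's limit of 0.829 in 1 of them, where chance gives about 1 in 20 groups, or about 2 here. It was TYMSOS in SP cells, in which SP replicate 3 (182 CPM) stood above the other 3 libraries (121 to 130 CPM) with a ratio of 0.853. Without this library the log2 fold change of TYMSOS was -1.0 instead of -0.84.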

How the results depend on the processing

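No result changed direction among those that were called. Of the members, 3 were called lower in SP cells, and 1 to 2 when a library was left out. Leaving out genes with an exon on the opposite strand, an alternative chosen after seeing the data, removes TYMS, ENOSF1, TYMSOS, DUT and SHMT1 from the test and leaves 0. Among all tested genes 152 were called higher and 189 lower. These became 303 and 381 with no filter on low counts, 59 and 65 without the genes with an opposite-strand exon, and 69 to 164 and 89 to 181 with a library left out. The lowest numbers came without NSP replicate 2, and the count fell by more than 1.5 times also without SP replicate 2 (91 and 110) and, for genes called higher, without NSP replicate 1 (93). Of the pathway genes 0 were called in either direction, but 2 higher and 1 lower without a filter, and 0 to 1 in each direction with a library left out.

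The replicate block treats same-numbered libraries as pairs, though the labels do not state this. With it 548 genes were called higher and 652 lower, and 2 pathway genes in each direction. The block left 3 members called lower and gave an ENOSF1 to TYMS log2 ratio difference of -0.22. DESeq2, DESeq2 size factors, limma voom, upper-quartile normalization and the stricter filter kept these counts within 1.5 times. Depth limits RRM2B and DPYD, which the filter left out and which DESeq2 did not call. The simulation missed some 2-fold changes and changed no genes at levels as low as these.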

Other observations

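Of the genes with an exon across a named pathway gene, some were called and others were not. ALDH1L1-AS1, a lncRNA across 251 exon bases of ALDH1L1, was called higher in SP cells with a log2 fold change of 1.61 (SE 0.35, edgeR adjusted p = 0.0183), and it had 42.4 times the counts per kb of ALDH1L1. ALDH1L1-AS1 was not called without SP replicate 2 or SP replicate 3 (1.45 in both).

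DPYD-AS1 was called lower at -0.91 (SE 0.22, adjusted p = 0.0272) and fell from 57.0 ± 5.84 CPM in NSP to 30.2 ± 9.85 CPM in SP libraries (SD, n = 4 each), in 4 of 4 replicate numbers, whereas DPYD was left out by the edgeR filter and not called by DESeq2. DPYD-AS1 was not called without NSP replicate 2 (-0.87), NSP replicate 3 (-0.88), SP replicate 1 (-0.82) or SP replicate 4 (-0.79). COL18A1, which shares 1563 exon bases with SLC19A1, was at -0.63 (SE 0.19, adjusted p = 0.0768, with the replicate block 0.0161), and SARM1, which lies across 55.6% of the SLC46A1 exon length, was at 0.30 (SE 0.21). The MTHFD2 partners SLC4A5 (-0.62, SE 0.26) and ENSG00000264324 (-0.39, SE 0.25), the TK2 partners ENSG00000260755 (-0.14, SE 0.19) and ENSG00000261519 (-0.03, SE 0.33) and RRM1-AS1 (-0.25, SE 0.20) were not called. With the replicate block SLC4A5 (edgeR adjusted p = 0.00555), ENSG00000264324 (adjusted p = 0.0191) and COL18A1 were called lower. How far reads shared with these partners enter the counts of the pathway genes was not tested.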
